A study of Drosophila melanogaster with 18 samples.

Results

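Here mRNAs are described that kept 13.1% to 46.2% of their mean level after 30 min of heat shock (HS). Certain immune and stress response genes were set aside by symbol, while others, such as *Rel* and *vir-1*, remain. In *Drosophila* S2 cells, 50 genes of the 15602 in the RNA-seq table were chosen by their measured levels. Both libraries of unheated cells (non-HS, NHS) had to reach at least 10 FPKM, and the higher HS value had to be above 0 and at most 0.5 times the lower NHS value. FPKM scale the fragments of a gene by its transcript length and by library size. Of 5540 genes that reached the NHS minimum, 73 (1.32%) met the limit on HS. Of these, 23 were set aside by symbol, which removed antimicrobial peptide and peptidoglycan receptor genes, *upd* cytokines, several targets of the JNK and JAK-STAT pathways and small or antisense RNAs. *Thor*, *Dronc*, *pirk* and *Jra* were also among the 23. A further 8 genes, 1 of them not set aside by symbol, had a listed HS level of 0 in both replicates and do not count among the 73. Because the HS and NHS values chose the 50 genes, their difference is given as a description and carries no test.

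The study followed the transcription and mRNA of S2 cells through HS, and the RNA-seq part has 2 biological replicates before HS and 2 after 30 min. S2 cells are a line derived from fly embryos with traits of haemocytes, the blood cells of the fly. The cells of both conditions had no RNAi treatment and grew in M3+BPYE medium with 10% FBS. HS was started by adding the same volume of serum-free medium at 48°C and continued at 37°C, and strand-specific libraries were prepared from poly(A)+ RNA. The sources used here do not say whether NHS cultures also received serum-free medium, so the heat and the added medium cannot be told apart.

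When a fly cell is heated, transcription of many genes is reduced while heat shock protein genes are switched on. The level of an mRNA then depends on how fast it is degraded as well as on how much is still made, so that short-lived mRNAs can be lost soon after their synthesis slows. Many short-lived mRNAs encode regulators such as transcription factors, receptors and signalling proteins, while the mRNAs of metabolic and structural proteins are often stable.

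The libraries matched their labels, as *Hsp68*, which encodes an inducible heat shock protein, lay at 20.3 to 22.1 FPKM in NHS cells and at 9667 to 10271 FPKM after HS. Of 16 haemocyte markers in the table, 6 were at 10 FPKM or more in every library, and the phagocytic receptor gene *NimC1* was at or near 0. Of 24 markers of other tissues, none reached 10 FPKM in every library and 19 stayed under 1 FPKM. Their summed level was 12.8 and 11.99 FPKM before HS and 20.2 and 22.3 FPKM after it, without overlap, and its part in the results was not tested. The summed haemocyte markers were at 559 to 681 FPKM before HS and at 565 to 643 FPKM after it, so their ranges overlapped. Read totals were not used here. The lowest values gave only an estimate of relative depth. It put the HS libraries at 60.1% and 69.3% of the depth of NHS replicate 1, and NHS replicate 2 at 77.0%. The summed FPKM of all genes were 831628 and 837852 in NHS cells and 923996 and 926922 after HS.

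Before HS, the 50 genes together made up 0.564% and 0.618% of all FPKM in replicates 1 and 2. After HS they made up 0.177% and 0.165%. The share of the mean NHS level that was left after HS ran from 13.1% to 46.2%, with a median of 36.0%. Over all 5540 genes that reached the NHS minimum, the median share was 96.7%, with quartiles of 87.3% and 105%. At most 25% was left for 12 of the genes, 25% to 40% for 22 and over 40% for 16. In bulk RNA, fewer cells of a type and less RNA per cell cannot be told apart, and FPKM show only changes relative to other mRNAs. On the log2(FPKM + 1) scale the median difference of the 50 genes was -1.42, beside -0.02 over the 7815 genes whose mean reached 1 FPKM. With libraries rescaled to equal totals these medians were -1.56 and -0.16, and with rescaling to the ribosomal protein mRNAs they were -1.65 and -0.25.

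**Figure D1:**
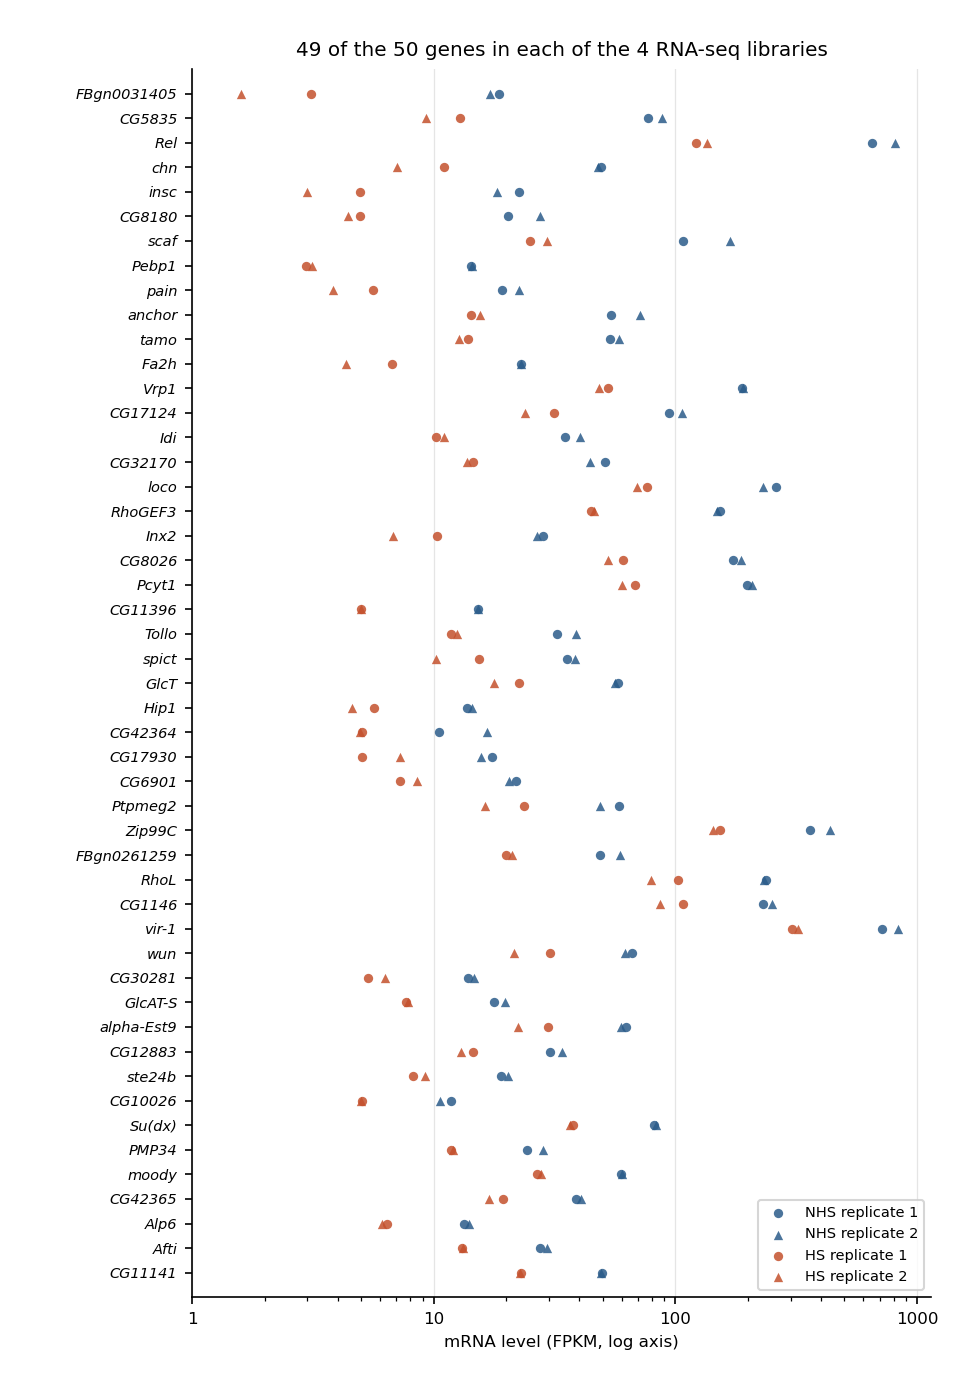
FPKM of 49 of the 50 genes (rows, ordered by the share left) in the 4 libraries, on a log axis, with NHS libraries in blue, HS libraries in orange, replicate 1 as circles and replicate 2 as triangles. The top row has 13.1% of its mean NHS level left and the bottom row 46.2%, and the blue and orange points of a row never overlap, which the choice of genes fixes.

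The genes covered a wide range of levels before HS. Mean NHS levels ran from 11.2 FPKM for CG10026 to 776 FPKM for *vir-1*, with a median of 43.6 FPKM, close to the 36.7 FPKM over all 5540 genes. At least 100 FPKM was reached by 12 of the 50 (24.0%) and by 19.1% of the 5540. After HS, 4 of the 50 were under 5 FPKM in both libraries. Less than 25% was left both of scarce mRNAs, such as *insc* and *pain*, and of abundant ones, such as *Rel*. Just inside the limit lay *PMP34*, alpha-Est9 and CG42365, whose higher HS value was 0.495, 0.498 and 0.499 times the lower NHS value. Just outside it lay CG17929, *ItgaPS4* and *PH4alphaNE2*, at 0.501, 0.504 and 0.508 times.

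**Figure D2:**
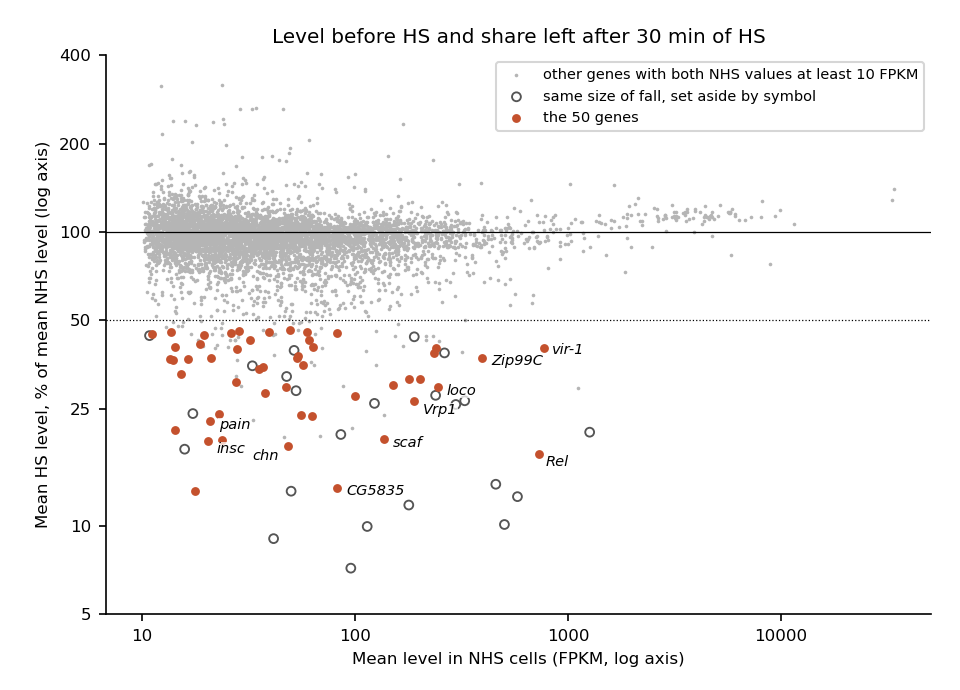
Mean NHS level (FPKM, log axis) against the mean HS level as a percentage of it (log axis) for genes with both NHS values at least 10 FPKM, with the 50 genes in orange and the 23 genes set aside by symbol as open circles. The orange points lie between 13.1% and 46.2% at levels from 11.2 to 776 FPKM, and 13 genes above 400% and 8 listed at 0 after HS are outside the axes.

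The 2 highest NHS levels of the group were those of *vir-1* and *Rel*, both genes of the immune response. *Rel*, which encodes the NF-kappaB factor at the end of the Imd pathway, stood at 652 and 810 FPKM before HS and at 122 and 135 FPKM after it. Its mean level was 731 ± 112 FPKM before HS and 129 ± 9.89 FPKM after it (SD, n = 2 each), so 17.6% was left, a level 5.69-fold lower. Its higher HS value was 0.208 times its lower NHS value, where the rule asked for at most 0.5. The other NF-kappaB genes, *dl* and *Dif*, had 78.6% and 106% of their NHS levels left. Of 13 other tested genes of the Imd signal chain, none was called lower or higher by limma at an adjusted p under 0.05. Over all 7815 genes tested, 1.56% were called lower and 1.75% higher. At an unadjusted p under 0.05, 4 of the 13 Imd genes were lower and 1 was higher, beside 10.5% lower and 7.42% higher of all 7815. The list for Toll and Imd signalling held 32 other tested genes, of which 9 were lower and 2 higher at an unadjusted p under 0.05 in limma. *CecA1* and *CecB*, antimicrobial peptide genes set aside by symbol, were not in that list. *pirk* and *PGRP-LF*, Imd genes set aside by symbol, also met the limit on HS, with 12.6% and 32.2% left. *Fadd*, an adaptor gene of the chain, had 65.6% left, and *PGRP-LC*, the receptor gene, had 118%.

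*vir-1*, an RNA induced by virus infection, partly through the JAK-STAT pathway, stood at 715 and 836 FPKM before HS and at 305 and 321 FPKM after it. It had 40.3% left and remained the most abundant of the 50 in both HS libraries. *Tollo*, a Toll-family receptor gene, stood at 32.3 and 38.7 FPKM before HS and at 11.8 and 12.5 FPKM after it. *Tl*, the Toll receptor gene itself and the only other family member above the minimum for the test, was at 13.3 and 12.3 FPKM before HS and at 15.2 and 13.5 FPKM after it. *tamo*, a regulator of the nuclear import of the NF-kappaB factor Dorsal, had 23.7% left, with 53.7 and 58.5 FPKM before HS and 13.8 and 12.8 FPKM after it. For *vir-1*, *Tollo* and *tamo* the HS libraries lay close together, and the choice of genes fixed that they lay well below the NHS libraries. The HS libraries of *Tl*, which was not chosen, lay slightly above its NHS libraries. This difference was not called in limma (log2 difference 0.15, standard error 0.12, adjusted p = 0.62).

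Of the genes of development and cell polarity, *chn*, *insc* and *scaf* were among those with the least mRNA left. *chn* (charlatan), a zinc finger transcription factor gene of the nervous system, stood at 49.2 and 48.1 FPKM before HS and at 11.1 and 7.05 FPKM after it, with 18.6% left. *insc* (inscuteable), which orients the spindle of dividing neuroblasts, stood at 22.6 and 18.3 FPKM before HS and at 4.94 and 3.00 FPKM after it. Of its 8 tested partners in asymmetric division, *pins* had 57.5% left, and the others, among them *baz*, *numb* and *aPKC*, had between 80.8% and 118%. *scaf* (scarface), a serine protease-like gene that responds to JNK signalling in the embryo, stood at 108 and 168 FPKM before HS and at 24.9 and 29.3 FPKM after it. The NHS replicates of *scaf* differed by 0.64 on the log2 scale, and the share left was 19.7%. *Su(dx)* (Suppressor of deltex), a Nedd4-family ubiquitin ligase gene that restrains Notch signalling, stood at 81.2 and 83.2 FPKM before HS and at 37.7 and 36.8 FPKM after it. The other ligase genes of that family, *Nedd4* and *Smurf*, had 91.5% and 108% left, beside 45.3% for *Su(dx)*.

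Several of the 50 genes encode regulators of G proteins or actin. *loco*, a regulator of G protein signalling, stood at 260 and 230 FPKM before HS and at 76.5 and 69.1 FPKM after it, with 29.7% left. *moody*, the G protein-coupled receptor gene that acts with *loco* in the blood-brain barrier of the fly, stood at 59.4 and 60.3 FPKM before HS and at 26.8 and 27.7 FPKM after it, with 45.5% left. Among 13 other tested genes of this signalling, *pins* was lowest and *Gbeta5* highest, at 57.5% and 128%, and none passed in limma at an adjusted p of 0.05. At an unadjusted p under 0.05, 3 of them were lower and 0 higher, beside 10.5% lower and 7.42% higher of all 7815 genes tested. *RhoGEF3*, a guanine exchange factor gene, stood at 153 and 148 FPKM before HS and at 44.7 and 46.0 FPKM after it. Both pairs of replicates lay close together, and 30.2% was left. Among 9 other exchange factor genes, *mbc*, the activator of Rac in phagocytosis and muscle fusion, had 45.0% left and *trio* 67.7%, while *Vav* and *pbl* had 116% and 145%.

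*RhoL*, a small GTPase gene of haemocytes, stood at 237 and 232 FPKM before HS and at 102 and 79.0 FPKM after it, with 38.7% left. *Vrp1* (verprolin), a partner of WASp in the branching of actin filaments, stood at 189 and 190 FPKM before HS and at 52.6 and 48.5 FPKM after it. Its mean was 190 ± 0.648 FPKM before HS and 50.5 ± 2.86 FPKM after it (SD, n = 2 each). *WASp*, *SCAR* and the subunit genes of the SCAR complex that were tested had between 79.8% and 96.3% left, beside 26.6% for *Vrp1*. The tyrosine phosphatase gene *Ptpmeg2* had 37.2% left and its relative *Pez* 56.8%.

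Genes of membrane channels and carriers were also among the 50. *pain* (painless), a TRPA channel gene needed for the response of larvae to noxious heat, stood at 19.1 and 22.6 FPKM before HS and at 5.62 and 3.83 FPKM after it. The other TRPA genes, *TrpA1*, *pyx* and *wtrw*, stayed under 1 FPKM in every library and were not tested. *Inx2*, a gap junction subunit gene, stood at 28.4 and 26.8 FPKM before HS and at 10.3 and 6.79 FPKM after it. The other innexin above the minimum, *ogre*, was at 1.89 and 1.37 FPKM before HS and at 1.38 and 0.455 FPKM after it. *Zip99C*, a ZIP-family transporter gene that carries iron into the secretory pathway, stood at 359 and 435 FPKM before HS and at 153 and 144 FPKM after it. On the FPKM scale it was the most abundant ZIP gene before HS. Of the 8 other ZIP genes tested, *Zip48C* had 91.0% left and *Zip89B*, at 0.187 and 0.122 FPKM before HS, was at 2.02 and 2.25 FPKM after it. The mitochondrial carrier gene CG8026 (173 and 187 FPKM before HS, 60.7 and 52.8 FPKM after it) and the peroxisomal carrier gene *PMP34* (24.3 and 28.3 FPKM before HS, 11.84 and 12.03 FPKM after it) kept 31.6% and 45.4%. Of the clathrin machinery, the accessory protein genes *Hip1* and *Afti* had 36.6% and 46.1% left. The 12 other tested coat and accessory genes had between 61.2% (*lap*) and 102% (*AP-2mu*), among them *Chc* and *Clc* with 89.9% and 88.1%.

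Several of the genes encode enzymes of membrane lipids. *Pcyt1*, the rate-limiting enzyme of phosphatidylcholine synthesis, stood at 198 and 207 FPKM before HS and at 68.0 and 60.1 FPKM after it, with 31.7% left. *Pcyt2*, its neighbour and relative, was at 9.76 and 8.22 FPKM before HS and at 6.83 and 6.86 FPKM after it. Because the genes overlap on the same strand, the division of reads between them is uncertain. *Fa2h*, the fatty acid hydroxylase of sphingolipid synthesis, stood at 23.05 and 23.02 FPKM before HS and at 6.74 and 4.36 FPKM after it. *GlcT*, the ceramide glucosyltransferase gene, stood at 58.0 and 56.1 FPKM before HS and at 22.5 and 17.8 FPKM after it. The 11 other tested genes of phosphatidylcholine and sphingolipid synthesis had between 61.6% (CG2201) and 144% (*Cerk*, the ceramide kinase gene) left. At an unadjusted p under 0.05, 3 of the 11 were lower and 1 higher in limma, beside 10.5% and 7.42% of all 7815 genes tested. Among them *schlank*, a ceramide synthase gene, had 77.0% left, and *lace*, the first enzyme of sphingolipid synthesis, and *ifc*, the desaturase, had 83.8% and 82.5%. *Idi*, the isomerase of the isoprenoid (mevalonate) pathway, stood at 34.9 and 40.4 FPKM before HS and at 10.25 and 11.03 FPKM after it. It had 28.2% left, while *Mvd*, *Hmgs* and *Mvk* of that pathway had 82.2%, 92.2% and 102%.

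*wun* (wunen), a lipid phosphate phosphatase gene that guides germ cells, stood at 66.2 and 61.6 FPKM before HS and at 30.2 and 21.6 FPKM after it. Its neighbour and relative *wun2* was at 142 and 108 FPKM before HS and at 64.0 and 24.7 FPKM after it. *wun2* had 35.4% left, less than *wun* with 40.5%, but missed the rule because HS replicate 1 lay above the limit. CG12746, the remaining tested gene of this family, had 59.4% left. Relatives of the following enzyme genes lay closer to their NHS level. alpha-Est9 had 42.7% left and the other tested genes of the esterase cluster 90.6% to 99.0%. The glucuronyltransferase gene *GlcAT-S* had 41.6% left and its relatives 107% and 114%. The alkaline phosphatase gene *Alp6* had 45.6% left and its relatives 113% and 126%. The prenyl protease gene *ste24b* had 44.6% left and *ste24a*, beside it on the same strand, 68.5%.

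**Figure D3:**
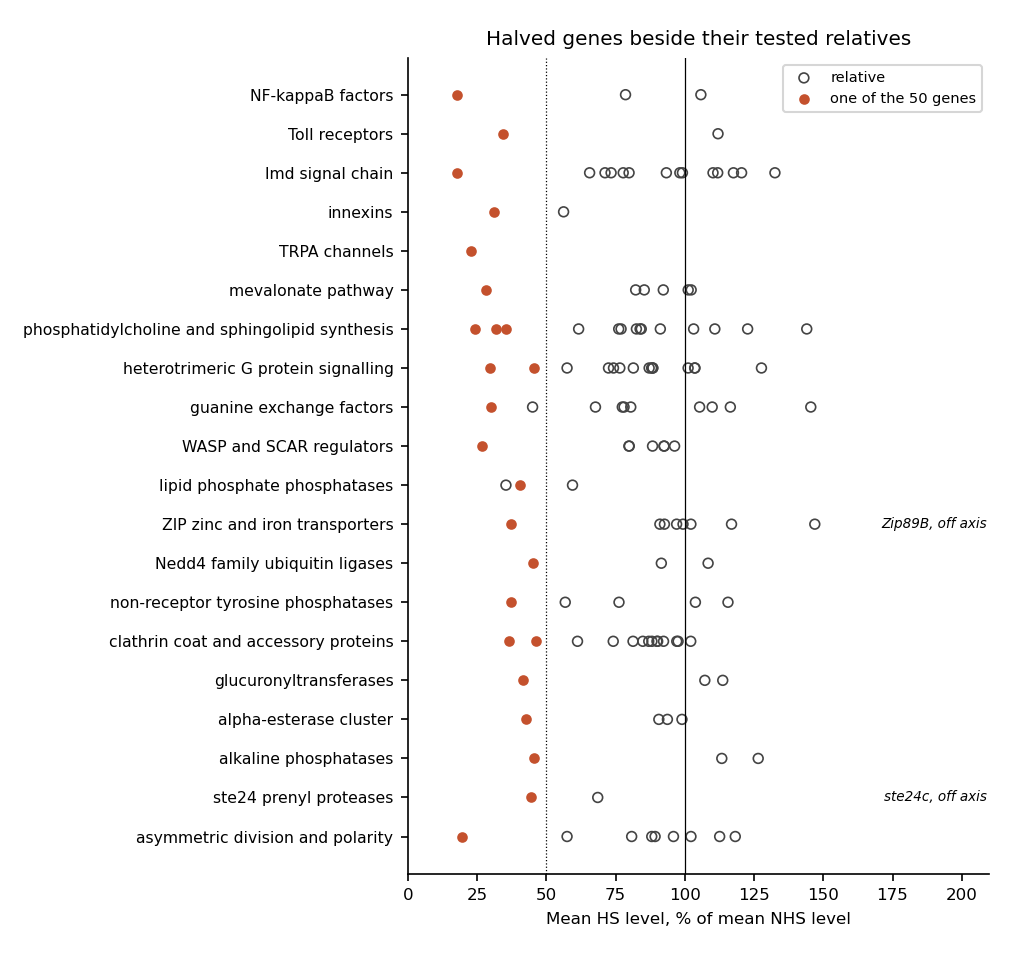
Mean HS level as a percentage of the mean NHS level for genes of 20 families or pathways, with the genes of the 50 in orange and their tested relatives as open circles. *Rel*, *insc* and *pain* lie at 17.6%, 19.4% and 22.7%, while the relatives have a median of 92.2%, and 2 relatives lie beyond the axis.

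The families were written down after the 50 genes were known, so they show only where close relatives lay. Of 142 relatives, 105 were tested, and by limma over all 7815 genes 0 were lower and 0 higher at an adjusted p under 0.05. At an unadjusted p under 0.05, 20 (19.0%) were lower and 3 (2.86%) higher, beside 10.5% and 7.42% of all 7815 genes. With robust variance moderation 1 was lower, with libraries rescaled to the same total 7 and with rescaling to the ribosomal protein mRNAs 14. The count was 17 with the replicate number as a block, a pairing that no source states. The median share left over the tested relatives was 92.2%, with quartiles of 79.9% and 105%. At least 80% was left for 78 of the 105, and at most 60% for 6. These 6 were *wun2*, *mbc*, *ogre*, *Pez*, *pins* and CG12746, named here after their values were seen.

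Of 42 gene lists for pathways and functions, 8 held at least 1 of the 50 genes, and 40 of the 50 were in none. Among the lists with such genes were Toll and Imd signalling, the JNK, EGFR and Notch pathways, membrane transporters, ubiquitin ligases and G protein signalling. The list for the actin cytoskeleton held 0 of the 50. Of its 30 tested genes, 12 were lower and 0 higher at an unadjusted p under 0.05 in limma. The list for scavenger, lipid and fatty acid metabolism also held 0 of the 50, and 2 of its 26 tested genes were lower and 2 higher. The Toll and Imd list did not hold *CecA1* and *CecB*, set aside by symbol, which limma called lower (adjusted p = 0.022 and 0.0088). The JNK list did not hold *Mmp1* and *puc*, also set aside, with 13.8% and 38.8% left. In all, 25 genes set aside by symbol were called lower. Of the 204 other tested genes in the 8 lists, limma called 1 lower and 4 higher (adjusted p under 0.05). At an unadjusted p under 0.05, 28 (13.7%) were lower and 11 (5.39%) higher, beside 10.5% and 7.42% of all genes tested. The lower gene was *Usp5*, a deubiquitinase gene, at 30.1 and 29.9 FPKM before HS and at 16.3 and 15.3 FPKM after it. Its log2 difference was -0.88 (standard error 0.10, adjusted p = 0.026 from limma), and the call was lost without any 1 of the 4 libraries. The higher genes were *E(spl)m3-HLH* and *E(spl)mbeta-HLH*, repressors induced by Notch, *edl*, a modulator of ETS factors in EGFR signalling, and *Gprk2*, a receptor kinase gene listed at 0 in both NHS libraries. *E(spl)m3-HLH* had a log2 difference of 1.85 ± 0.20 (standard error) with a limma adjusted p = 0.026, and *edl* one of 0.65 ± 0.09 with an adjusted p = 0.044. The *E(spl)* genes lay at 388% and 264% of their NHS level and were the only genes called among the 19 other tested genes of the Notch list, whose median log2 difference was 0.09.

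Several of the genes with the least mRNA left carry only an identifier or have no role given here. FBgn0031405, which has no symbol in the annotation used, stood at 18.6 and 17.1 FPKM before HS and at 3.09 and 1.60 FPKM after it, the smallest share left (13.1%). CG5835 stood at 77.1 and 88.3 FPKM before HS and at 12.9 and 9.31 FPKM after it, with 13.4% left. CG8180, at 20.2 and 27.5 FPKM before HS, was at 4.93 and 4.40 FPKM after it. *Pebp1*, a member of the phosphatidylethanolamine-binding protein family, stood at 14.3 and 14.4 FPKM before HS and at 2.96 and 3.12 FPKM after it. Between 13.1% and 21.3% of the NHS level was left in these genes, and the choice of genes fixed that no HS value came near an NHS value. *anchor* stood at 54.3 and 71.7 FPKM before HS and at 14.2 and 15.5 FPKM after it. CG17124 stood at 93.99 and 106 FPKM before HS and at 31.6 and 23.9 FPKM after it. CG1146, an abundant mRNA at 230 and 252 FPKM before HS, stood at 108 and 86.4 FPKM after it, with 40.2% left. The remaining genes, CG32170, CG11396, *spict*, FBgn0261259, CG12883, CG10026 and CG11141, had between 29.6% and 46.2% left. They are named to complete the group.

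Some of the genes lie side by side in the genome. CG17930 (17.4 and 15.7 FPKM before HS, 5.04 and 7.24 FPKM after it) and CG6901 (21.9 and 20.5 FPKM before HS, 7.27 and 8.49 FPKM after it) flank CG17929 on the same strand. CG17929 missed the rule by the narrowest margin, at 18.2 and 18.6 FPKM before HS and 6.70 and 9.09 FPKM after it, so that these 3 neighbours had between 37.1% and 43.0% left. CG42364 and CG42365 are also adjacent on the same strand, with 37.0% and 45.6% left. CG42362, which overlaps CG42364 on that strand, had 40.6%, and reads of overlapping genes on the same strand cannot be told apart. CG30281 lies within the bounds of *Vrp1* on the opposite strand. It stood at 13.9 and 14.6 FPKM before HS and at 5.35 and 6.26 FPKM after it, far below the level of *Vrp1*. An antisense RNA of *loco*, CR43474, which was set aside by symbol, stood at 10.1 and 11.7 FPKM before HS and at 5.02 and 4.63 FPKM after it. The reads were aligned with their strand, but the sources used here do not state whether the FPKM of overlapping genes were computed by strand.

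The other neighbours of the 50 were mostly not called. Over the nearest protein-coding gene on each side, 60 neighbours were tested and passed in neither direction in limma at an adjusted p of 0.05, and 22 were under the minimum. Most genes anywhere were not called, as 1.56% of all 7815 genes tested were called lower and 1.75% higher. The genes called lower were CG17929 and *phu*, beside *RhoL*, with 43.9% left. kappaB-Ras, an inhibitor of NF-kappaB signalling beside *Fa2h* on the same strand, was the only neighbour called higher, at 246% of its NHS level. Of 48 genes with an annotation, 29 were overlapped by another gene and 11 by a gene on the same strand. These shares were not computed over all genes. Among the 11 were *Rel*, which overlaps *Nmdmc* (79.3 and 83.1 FPKM before HS, 86.7 and 71.1 FPKM after it), and *insc*. The latter overlaps *sktl* (61.2 and 62.8 FPKM before HS, 47.6 and 47.1 FPKM after it). CG32170, CG8026, CG1146, alpha-Est9 and *Ptpmeg2* were also among them, and for all 11 the division of reads is uncertain.

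The replicates of the 50 genes differed more after HS than before it. Within 0.25 on the log2 scale, the NHS replicates agreed for 40 of the 50 genes and the HS replicates for 32. Over all 5540 genes these shares were 75.4% and 67.9%, beside 80% and 64% of the 50. By over 0.5 on the log2 scale, the HS replicates differed for 10 of the 50 (20.0%, beside 6.79% of the 5540), and for 9 of these replicate 2 was the lower. They included FBgn0031405, *chn*, *insc*, *pain*, *Fa2h*, *Inx2*, *spict* and *Ptpmeg2*, with mean HS levels from 2.35 to 20.0 FPKM, and in CG17930 replicate 2 was the higher. The NHS replicates differed as much only in *scaf* and CG42364. Replicate 2 was above replicate 1 before HS for 32 of the 50 (64%, beside 49.3% of the 5540) and below it after HS for 33 (66%, beside 54.5%). The rule compares the highest HS with the lowest NHS value, so its count rests on single libraries. Without NHS replicate 1 or without HS replicate 1 it gave 86 genes in place of 50, where fewer libraries make the limit easier to meet.

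**Figure D4:**
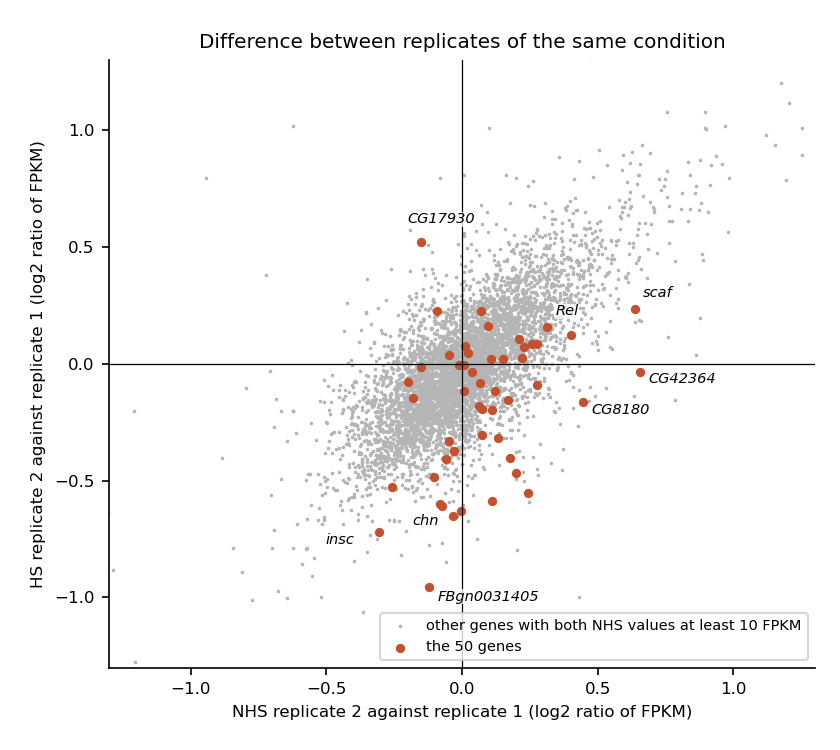
Log2 ratio of replicate 2 to replicate 1 in NHS cells (horizontal) against the same ratio after HS (vertical) for the 50 genes (orange) and the other genes with both NHS values at least 10 FPKM (grey). Of the orange points, 33 lie below the horizontal line and 32 to the right of the vertical line, and 58 grey points lie beyond 1.3 on an axis.

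Transcript features were read from the annotation for 48 of the 50 genes. The rule did not use length or exon number, but its removal of small and antisense RNAs by symbol acted on gene type and short length. The 5274 annotated genes that reached the NHS minimum kept those RNAs, so the shares of protein-coding and short genes were partly fixed in advance. All 48 are protein-coding, as are 97.4% of the 5274. Their longest transcripts had a median of 2659 nt, beside 1951 nt over the 5274 genes, and 20 of 48 (41.7%) were longer than 3000 nt, beside 28.4%. None was under 300 nt, a class in which FPKM are unreliable and which made up 1.54% of the 5274. With the shortest transcript of each gene in place of the longest, the medians were closer, at 1777 and 1686 nt. The longest transcript of all was that of *RhoGEF3*, at 12307 nt with 16 exons. The median number of exons was 4 in both sets. Genes with 1 exon, among them *Tollo*, *GlcT* and *Pebp1*, were 6 of 48 (12.5%), beside 10.6%. On chromosome arm 2R lay 17 of the 48 (35.4%, beside 20.8% of the 5274 genes), and 3 (6.25%, beside 16.4%) lay on the X chromosome. These shares are a description and were not tested.

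**Figure D5:**
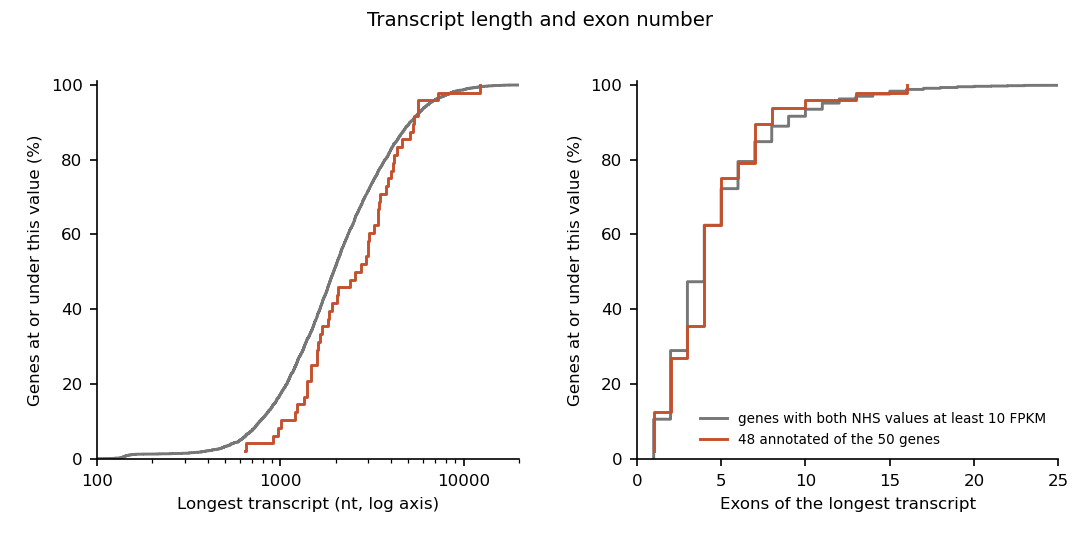
Cumulative share of genes by the length of the longest annotated transcript (left, log axis in nt) and by its exon number (right), for 48 of the 50 genes (orange) and all annotated genes with both NHS values at least 10 FPKM (grey). The orange curve lies to the right of the grey one for length, with medians of 2659 and 1951 nt, and the curves for exons share a median of 4.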

How the data were processed

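RNA-seq libraries came from untreated S2 cells and from S2 cells after 30 min of HS (2 each). The authors removed adapters, discarded reads under 20 nt, aligned the rest with TopHat2 to dm3 and deposited FPKM per gene and library computed with Cuffnorm (versions and scaling setting not given in the sources used here). Conditions came from the labels and replicate numbers from the column names, with 0 columns unmapped. PRO-seq samples were not used here.

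The 50 genes, the gene lists and the tests were chosen with earlier results of these data known, and the families of relatives after the 50 were found. Named genes were the 15 with the smallest share left, the 10 most abundant, up to 4 per list, 3 on each side of the limit, relatives and neighbours of these, and the called gene with the largest change from each list. Others are marked in the text. Values of 1 of the 50 genes and of some relatives are not reported here.

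The 7815 genes whose mean reached 1 FPKM were compared as log2(FPKM + 1) with limma 3.58.1 in R 4.3.3 (eBayes with trend, Benjamini-Hochberg over all of them). The study's FDR of 0.001 left 0 genes lower and 817 genes were lower at an unadjusted p under 0.05. FPKM hold no read counts, so the count test of the study was not repeated. Symbols, transcripts and gene order came from the Ensembl annotation of BDGP6, which named 14925 of 15602 genes. As the files use dm3, no coordinates are given. Alternatives changed the pseudocount, filter, scaling, variance moderation, replicate term, libraries and the rule's limits. Python 3.11.15, numpy 2.4.6, pandas 2.3.3 and matplotlib 3.10.9 were used.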

Additional observations from a re-analysis of the deposited data

How the results depend on the processing

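The rule gave 50 genes, 90 when means were compared and 94 with rescaling to the ribosomal protein mRNAs. It gave 44 under quantile normalization, with 43 of the 50, and 60 to 86 without any 1 library. The median log2 difference of -1.42 was -1.27 with pseudocount 5, -1.56 with equal totals, -1.65 with ribosomal protein scaling and -1.56 to -1.38 without any 1 library. The median transcript length of 2659 nt was 1777 nt for the shortest transcripts.

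In limma, 122 of all genes were lower and 137 higher. Lower counts were 252 with equal totals, 451 with ribosomal protein scaling, 190 with robust moderation and 6 to 34 without any 1 library, with 132, 142, 178 and 16 to 36 higher. No filter gave 116 lower and 280 higher, and a filter of 5 FPKM gave 89 and 60. Other genes of the fixed lists were 1 lower, and 2 with no filter, 8 with equal totals, 19 with ribosomal protein scaling, 4 with robust moderation and 0 without any 1 library. With the replicate number as a block, a pairing that no source states, 582 were lower and 334 higher, and 26 list genes and 17 relatives were lower. Across 5527 genes, the replicate differences before and after HS had a Spearman's rho of 0.67, and of 0.35 across the 50. Genes are not independent replicates. FPKM give no read counts or absolute read depth, so counting error could not be computed.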

Other observations

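A further 40 genes had a mean HS level of at most 0.5 times the mean NHS level, but their higher HS value was above 0.5 times their lower NHS value. They were chosen on the same values, so these too carry no test. Several belong to functions named in the report. *edin*, an infection-induced secreted peptide gene, stood at 689 and 1533 FPKM before HS and at 225 and 430 FPKM after it, with 29.4% left. *Pvf2*, a ligand gene of the PDGF/VEGF receptor family, stood at 278 and 218 FPKM before HS and at 134 and 76.8 FPKM after it. The zinc transporter gene *ZnT63C* stood at 235 and 229 FPKM before HS and at 120 and 84.7 FPKM after it. *Nrt* (neurotactin), a cell adhesion gene, stood at 20.9 and 17.9 FPKM before HS and at 10.1 and 5.73 FPKM after it. *PPO3*, a prophenoloxidase gene of haemocytes, stood at 12.7 and 15.4 FPKM before HS and at 8.06 and 5.91 FPKM after it. *Rabex-5*, an exchange factor gene of endosomal traffic, stood at 56.1 and 55.4 FPKM before HS and at 29.8 and 25.5 FPKM after it. These genes were named after their values were seen.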
